A study of Homo sapiens with 20 samples.

Results

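The genes described here are 10 negative feedback genes of the ERK pathway, DUSP1, DUSP4, DUSP5, DUSP6, DUSP7, SPRY2, SPRY4, SPRED1, SPRED2 and PHLDA1. They were chosen by name, with earlier results of these data known. Their counts beside the shares of all genes are thus descriptions and not a test. All 10 were matched to the Ensembl identifiers of the count files, which list 57500 genes. Each passed the filter on low counts in every comparison. RNA was sequenced from NTERT cells, a line of human keratinocytes immortalized with hTERT, to ask how loss of the eIF2 kinase GCN2 alters gene expression in resting and wounded monolayers. The 20 libraries fall into 4 groups of 5, namely WT and GCN2KO cells, each unwounded or after HDW. HDW is high-density wounding, in which many scratches are drawn across a monolayer so that a large share of the cells borders a wound, and RNA was taken 6 h later. GCN2KO cells are a CRISPR/Cas9-edited pool and not a clone, so edited and unedited cells within a library cannot be told apart. The paper describes its WT cells as carrying a control guide RNA. Replicates from separately edited pools are not described, so loss of GCN2 and other differences between the edited and control cells cannot be told apart. All 4 groups were grown in low-calcium EpiLife medium with keratinocyte growth supplement, and the methods of the study add calcium and serum before wounding to form a differentiated monolayer.

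Growth factors that bind EGFR and related receptors activate RAS, which switches on the kinases RAF, MEK and ERK in turn. ERK then induces genes whose products damp the same pathway. DUSP proteins remove phosphate from ERK and other MAP kinases, Sprouty proteins (SPRY) act between receptor and RAS, and SPRED proteins recruit the RAS inhibitor NF1 to the membrane. PHLDA1 has a pleckstrin homology-like domain and, with DUSP4, DUSP6, SPRY2 and SPRY4, is a gene whose mRNA is widely read as an output of ERK activity. EGFR and ERK signaling is known to drive keratinocyte migration into a wound.

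The promoters of 3 genes are printed because these genes gave 3 different patterns below. DUSP1 differed between genotypes and did not pass the test for HDW, DUSP6 rose with HDW in both genotypes, and PHLDA1 rose with HDW past the test in WT and not in GCN2KO cells. Each sequence holds the 250 bases before the start site, from RefSeq (GRCh38.p14), all on the minus strand, at chr5:172771196-172771445 for DUSP1, chr12:89352502-89352751 for DUSP6 and chr12:76031777-76032026 for PHLDA1. Capitals mark matches to the motifs searched, which in DUSP1 are a cAMP response element and a TATA box.
DUSP1: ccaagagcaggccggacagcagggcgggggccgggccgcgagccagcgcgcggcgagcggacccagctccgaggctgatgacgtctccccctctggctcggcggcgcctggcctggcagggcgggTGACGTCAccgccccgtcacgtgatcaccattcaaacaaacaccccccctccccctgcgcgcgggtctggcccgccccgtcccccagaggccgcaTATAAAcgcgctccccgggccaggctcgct
DUSP6: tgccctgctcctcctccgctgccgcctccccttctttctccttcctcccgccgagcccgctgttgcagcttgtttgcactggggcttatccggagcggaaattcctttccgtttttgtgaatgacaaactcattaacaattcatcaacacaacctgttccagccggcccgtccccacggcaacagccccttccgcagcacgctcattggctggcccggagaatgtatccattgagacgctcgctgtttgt
PHLDA1: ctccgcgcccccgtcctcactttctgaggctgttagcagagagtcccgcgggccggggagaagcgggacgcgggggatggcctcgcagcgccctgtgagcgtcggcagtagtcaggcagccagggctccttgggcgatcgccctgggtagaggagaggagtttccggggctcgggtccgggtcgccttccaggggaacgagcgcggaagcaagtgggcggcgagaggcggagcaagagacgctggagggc

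RefSeq promoters of 300 bases, 250 before and 50 after a start, were matched for 8 of the 10 genes, with 11 start sites in all, and searched on both strands. The cAMP response element TGACGTCA, which reads the same on both strands, is held by 1.85% of 35116 promoters and by that of DUSP1 at position -125 from the start. The TATA box TATAAA is held by 11.5% of promoters, by DUSP1 at -30 and by the downstream start of SPRED2 at -31. The AP-1 site TGACTCA, held by 4.95% of promoters, was matched at -6 in that same SPRED2 window. No member matched the ETS site CCGGAAG (10.3% of promoters), the C/EBP-ATF element TGATGCAA (0.866%) or the CArG box (1.29%), and no matches overlapped one another. G and C made up 73.3% of the DUSP1 window, 58.3% of DUSP6 and 69.3% of PHLDA1, against a median of 58.7% over all promoters.

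Libraries held 14083504 to 34611570 counts on genes, and WT unwounded libraries were the shallowest, with a median of 23685751 counts against 33981257 to 34209033 in the other groups. For the normalized read counts given here, each library was scaled by its TMM factor, computed across the 20 libraries. When counts were thinned to the depth of the smallest library, SPRY2 was the only one of the 10 genes to change a call. EIF2AK4, which encodes GCN2, measured 4355 ± 149 (SD, n = 5) in WT unwounded and 894 ± 61.8 (SD, n = 5) in GCN2KO unwounded cells, and 4194 ± 129 (SD, n = 5) and 874 ± 66.5 (SD, n = 5) after HDW. All 11 keratinocyte markers were expressed, with summed normalized read counts of 634169 to 765077 in WT and 515546 to 646359 in GCN2KO libraries. Markers of other cell types were expressed in part, with a mean of at least 10 normalized read counts for 2 of 8 fibroblast markers (COL1A1 and DCN), 2 of 6 leukocyte markers (CD14 and CD68), 1 of 5 endothelial markers (KDR) and 3 of 7 melanocyte markers. Summed leukocyte markers were 1614 to 1872 in WT unwounded, 899 to 1053 in WT HDW, 702 to 1282 in GCN2KO unwounded and 479 to 1056 in GCN2KO HDW libraries. Most of it was CD14, which averaged 1683, 916, 785 and 577 in this order, while CD68 averaged 48.5, 68.4, 94.8 and 98.3 and PTPRC at most 0.338. Summed fibroblast markers were 758 to 1043 in WT and 669 to 920.1 in GCN2KO libraries, with COL1A1 averaging 736 to 892, and summed endothelial markers were 10.9 to 37.5 in all libraries. Summed melanocyte markers were 130 to 209 in WT and 351 to 644 in GCN2KO libraries, of which MITF alone averaged 87.5 to 124 and 338 to 476, with SOX10 and TYR at 0 in every library. The differentiation marker IVL averaged 3126 and 4464 in WT unwounded and WT HDW cells and 11072 and 17349 in GCN2KO unwounded and HDW cells. In the same order, the basal keratin KRT15 averaged 257317, 130585, 69726 and 59815 and KRT14 63316, 73199, 35134 and 42792. The list was not uniform, as the basal keratin KRT5 averaged 233782, 272808, 329191 and 389797. Of the differentiation keratins, KRT1 averaged 22.4, 20.2, 11.2 and 11.2 and KRT10 1261, 1054, 1468 and 1276. The part of these markers in the results was not tested. In bulk RNA, fewer cells of a type and less RNA per cell cannot be told apart.

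Compared per exonic length, PHLDA1 was the most abundant of the 10 mRNAs and SPRY4 the least. PHLDA1 measured 21.0 ± 1.23 (SD, n = 5) CPM per kb (counts scaled for library size and exonic length) in WT unwounded cells and DUSP7 20.7 ± 0.756 (SD, n = 5), which do not differ beyond their spread. The levels of DUSP1, SPRED2, DUSP5, DUSP6, DUSP4, SPRED1 and SPRY2 followed at 5.99, 4.41, 4.25, 2.42, 2.30, 2.20 and 2.15 CPM per kb, and that of SPRY4 was 0.111 ± 0.0312 (SD, n = 5). SPRED2 and DUSP5, and the last 4 before SPRY4, lie within each other's spread. With the length of the longest transcript in place of all exons, DUSP7 came above PHLDA1 in WT unwounded cells, at 34.8 against 21.0. In GCN2KO unwounded cells DUSP1 was second, at 23.7 ± 3.61 (SD, n = 5) CPM per kb, but with the length of the longest transcript DUSP7, at 28.7, came before it. An antisense gene with 0 to 6 counts per library covers 28.6% of the exonic bases of DUSP6, and PHLDA1-AS1, with 0 to 5 counts, covers 9.35% of those of PHLDA1, while the exons of the other 8 genes overlap no other gene.

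**Figure D1:**
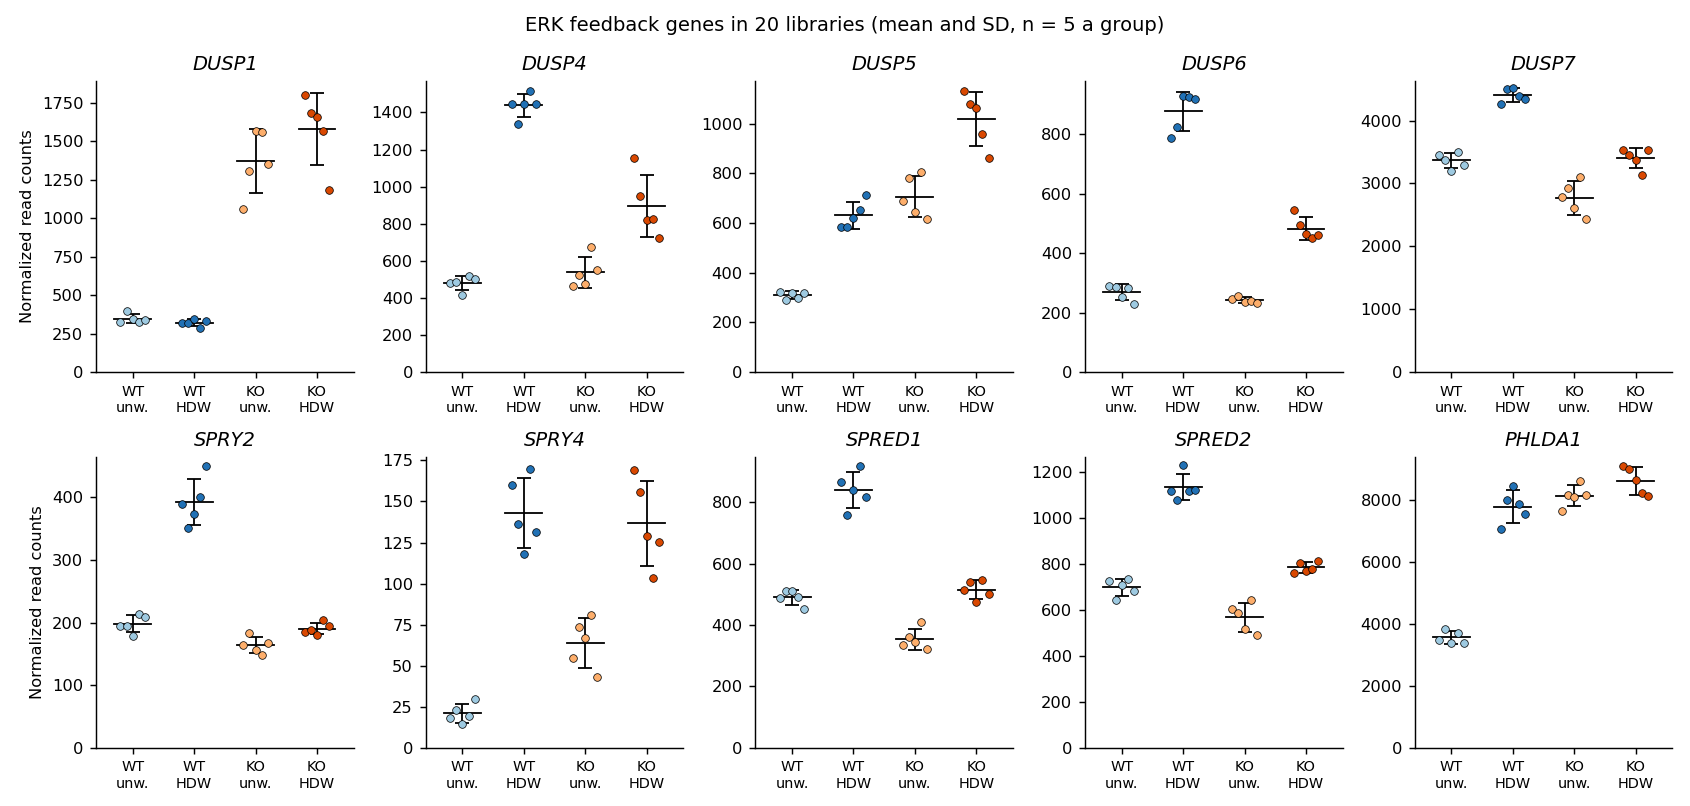
Normalized read counts (y axis, linear from 0) of the 10 ERK feedback genes in each of the 20 libraries, by group on the x axis (KO, GCN2KO; unw., unwounded). Points are libraries and bars are the mean and SD of 5 libraries. DUSP1 sits at 289 to 398 in WT and at 1061 to 1801 in GCN2KO libraries, and DUSP4 and DUSP6 are highest in WT HDW cells.

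HDW of WT cells was compared with no wounding to ask which feedback genes respond to a wound. The mRNAs of 9 of the 10 genes rose, SPRY4 by 6.63-fold, DUSP6 by 3.29-fold, DUSP4 by 2.98-fold, PHLDA1 by 2.18-fold and DUSP5 by 2.03-fold, with smaller rises of SPRY2, SPRED1, SPRED2 and DUSP7. DUSP1 was the exception at 6 h after HDW, the only time at which RNA was sequenced, so earlier changes were not measured. Of all 15348 genes tested, 26.1% rose at an adjusted p of at most 0.05 (edgeR quasi-likelihood test, Benjamini-Hochberg adjusted), and 2.62% were higher DE genes, that is, also had a log2 fold change of at least 1. Of the 10 feedback genes, 5 were DE genes. The median log2 fold change was 1.00 over the 10 genes and -0.0024 over all genes. In the same 9 genes all 5 HDW libraries lay above all 5 unwounded ones, which held for 19.2% of all genes. SPRY4, DUSP6 and DUSP4 ranked 27, 110 and 140 from the highest fold change.

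Among the phosphatases, DUSP6, which is cytoplasmic and specific for ERK, measured 288, 287, 254, 284 and 227 normalized read counts in WT unwounded replicates 1 to 5. It measured 787, 825, 927, 925 and 919 in WT HDW replicates 1 to 5, a log2 fold change of 1.72 (SE 0.074, adjusted p = 1.41e-10). The lowest HDW library held more DUSP6 than the highest unwounded one by a wide margin. DUSP4, a nuclear phosphatase of ERK and JNK, measured 481, 487, 417, 517 and 499 without wounding and 1445, 1338, 1446, 1515 and 1446 after HDW. Its groups were far apart and its HDW libraries varied by only 4.39% (SD relative to the mean), with a log2 fold change of 1.58 (SE 0.054, adjusted p = 2.06e-11). DUSP5, a nuclear phosphatase specific for ERK, measured 324, 289, 319, 298 and 320.0 without wounding and 583, 585, 619, 651 and 714 after HDW. These groups did not overlap either, and the log2 fold change of 1.02 (SE 0.065, adjusted p = 6.81e-09) was close to the fold threshold for a DE gene. Without WT HDW replicate 5, the highest library, it was 0.97.

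DUSP7, a second cytoplasmic phosphatase of ERK, was already abundant, at 3454, 3376, 3198, 3507 and 3298 normalized read counts in WT unwounded cells. It reached 4263, 4508, 4524, 4387 and 4348 after HDW, all above the unwounded libraries, for a log2 fold change of 0.39 (SE 0.035, adjusted p = 2.56e-07). DUSP1, the immediate early phosphatase that acts on p38 and JNK as well as on ERK, measured 328, 398, 345, 327 and 336 without wounding and 320.0, 321, 346, 289 and 331 after HDW. The groups overlapped, and DUSP1 did not pass the test, with a log2 fold change of -0.10 (95% interval -0.26 to 0.052, adjusted p = 0.218).

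Both Sprouty genes rose. SPRY4 measured 17.9, 23.2, 14.5, 19.5 and 29.9 normalized read counts in WT unwounded and 160.2, 136, 118, 170 and 131 in WT HDW cells. The groups were far apart, at a log2 fold change of 2.73 (SE 0.17, adjusted p = 6.35e-09), although the unwounded libraries held only 9 to 31 raw counts of SPRY4. SPRY2, which binds CBL and GRB2, measured 195, 195, 179, 214 and 209 without wounding and 389, 351, 374, 401 and 450 after HDW. All HDW libraries were above all unwounded ones, and the log2 fold change of 0.98 (SE 0.077, adjusted p = 7.05e-08) lay just under the fold threshold.

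The SPRED genes and PHLDA1 moved the same way. SPRED1 measured 487, 510.3, 510 and 490 in WT unwounded replicates 1 to 4 and 453 in replicate 5, against 867, 760, 839, 918 and 816 normalized read counts after HDW. SPRED2 measured 723, 642, 708, 733 and 680 without wounding and 1114, 1078, 1229, 1119 and 1123 after HDW. In neither gene did the groups overlap, and the log2 fold changes were 0.78 (SE 0.055, adjusted p = 2.31e-08) for SPRED1 and 0.70 (SE 0.047, adjusted p = 1.19e-08) for SPRED2. PHLDA1 measured 3498, 3849, 3384, 3721 and 3383 without wounding and 7054, 8013, 8456, 7880 and 7558 after HDW. Every HDW library held more PHLDA1 than every unwounded one, at a log2 fold change of 1.13 (SE 0.051, adjusted p = 2.66e-10).

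**Figure D2:**
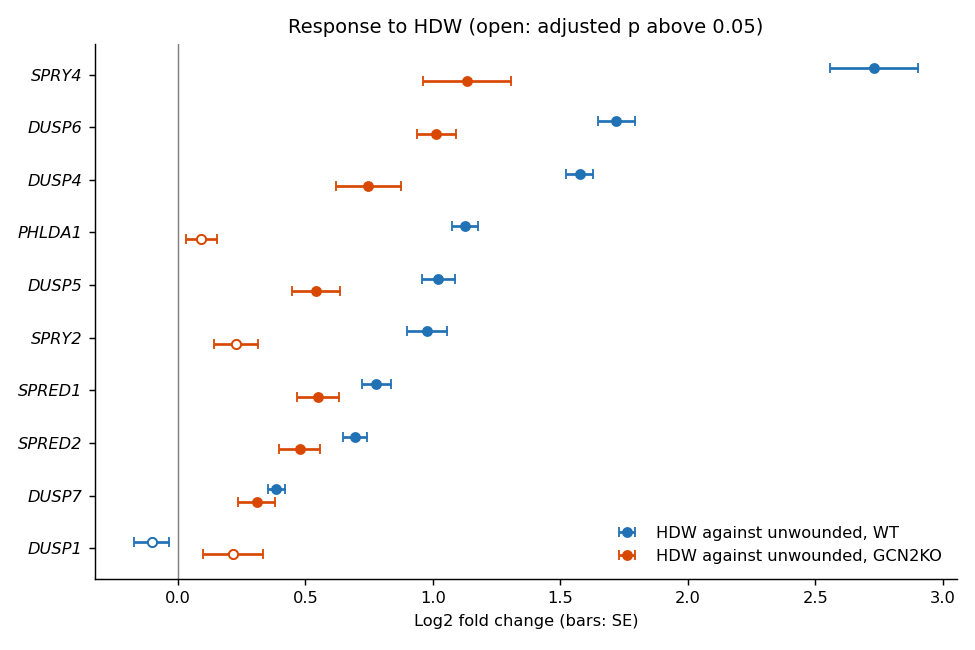
Log2 fold change of HDW against unwounded cells (x axis, bars are the SE from edgeR) for each ERK feedback gene (y axis), in WT and GCN2KO cells with 5 libraries per group. Open points did not pass the test at an adjusted p of 0.05. SPRY4 leads in both genotypes, at 2.73 in WT and 1.13 in GCN2KO cells, and PHLDA1 is at 1.13 in WT and 0.09 in GCN2KO cells.

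In GCN2KO cells the same comparison asks how the genes respond to a wound without GCN2. SPRY4 rose by 2.19-fold, DUSP6 by 2.02-fold, DUSP4 by 1.68-fold, SPRED1 by 1.46-fold, DUSP5 by 1.45-fold, SPRED2 by 1.39-fold and DUSP7 by 1.24-fold. SPRY2, DUSP1 and PHLDA1 did not pass the test. Thus 7 of the 10 genes rose, where 11.9% of 15791 genes rose, and 2 of the 10 were DE genes, where 0.475% of all genes were higher DE genes. The median log2 fold change was 0.51 over the 10 genes and -0.00097 over all genes. In 7 genes all 5 HDW libraries lay above all 5 unwounded ones, against 7.52% of all genes. The biological coefficient of variation was 0.108 here and 0.0587 for HDW in WT cells.

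DUSP6 measured 246, 256, 236, 239 and 232 normalized read counts in GCN2KO unwounded replicates 1 to 5 and 544, 495, 463, 450 and 460 in GCN2KO HDW replicates 1 to 5. The groups did not overlap, and the log2 fold change was 1.01 (SE 0.076, adjusted p = 1.39e-05). It lay at the fold threshold and was as low as 0.97 with 1 library left out, under the threshold without GCN2KO unwounded replicate 3 or 5 or GCN2KO HDW replicate 1. DUSP4 measured 466, 521, 473, 676 and 549 without wounding and 1156, 949, 822, 828 and 723 after HDW. Its HDW libraries had an SD of 18.6% of the mean, against 4.39% in WT cells, with replicate 1 the highest, and the log2 fold change was 0.75 (SE 0.13, adjusted p = 0.00204). DUSP5 measured 687, 780.2, 643, 804 and 617 without wounding and 1129, 1080.0, 1061, 956 and 860.0 after HDW. These groups were separate, with a log2 fold change of 0.54 (SE 0.094, adjusted p = 0.00232).

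DUSP7 measured 2781, 2925, 2604, 3108 and 2432 normalized read counts in GCN2KO unwounded and 3529, 3458, 3371, 3131 and 3531 in GCN2KO HDW cells. HDW replicate 4 was barely above unwounded replicate 4, and the log2 fold change was 0.31 (SE 0.074, adjusted p = 0.0110). DUSP1 measured 1061, 1308, 1566, 1560.0 and 1352 without wounding and 1801, 1682, 1660, 1567 and 1186 after HDW. The groups overlapped through HDW replicate 5, and the log2 fold change of 0.21 (95% interval -0.056 to 0.49, adjusted p = 0.193) did not pass the test. Without that library it was 0.30, with an adjusted p of 0.0454.

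SPRY4 measured 54.6, 73.6, 66.7, 80.7 and 43.1 normalized read counts in GCN2KO unwounded and 169, 156, 129, 104 and 125 in GCN2KO HDW cells. All HDW libraries were higher, at a log2 fold change of 1.13 (SE 0.17, adjusted p = 9.76e-04). SPRY2 measured 164, 184, 156, 149 and 167 without wounding and 185, 188, 179, 204 and 194 after HDW. Here the highest unwounded library lay above the lowest HDW library, and the log2 fold change of 0.23 (95% interval 0.025 to 0.43, adjusted p = 0.0739) did not pass the test. It did pass with all 20 samples in 1 fit and without GCN2KO unwounded replicate 2, where the adjusted p was 0.0412.

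SPRED1 measured 334, 360.2, 346, 409 and 321 normalized read counts in GCN2KO unwounded and 513, 541, 475, 547 and 501 in GCN2KO HDW cells. SPRED2 measured 601, 587, 517, 643 and 491 without wounding and 759, 801, 770 and 777 in HDW replicates 1 to 4, with 813 in replicate 5. Neither gene's groups overlapped, and the log2 fold changes were 0.55 (SE 0.082, adjusted p = 8.88e-04) for SPRED1 and 0.48 (SE 0.080, adjusted p = 0.00186) for SPRED2. PHLDA1 measured 7667, 8175, 8109, 8630 and 8178 without wounding and 9118, 9005, 8644, 8232 and 8124 after HDW. Its groups overlapped, with unwounded libraries already at the level of wounded WT cells, and the log2 fold change was 0.09 (95% interval -0.048 to 0.23, adjusted p = 0.281).

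To ask whether the response to HDW itself differed between genotypes, the interaction was fitted to the 20 libraries together. A higher or lower response means a higher or lower log2 fold change in GCN2KO than in WT cells, so a weaker fall counts as higher. GCN2KO cells gave a smaller response than WT cells in SPRY4, PHLDA1, DUSP4, SPRY2, DUSP6 and DUSP5, and one not called different in SPRED1, SPRED2, DUSP7 and DUSP1. Of the 10 genes, 6 thus had a lower and none a higher response in GCN2KO cells, where 12.5% of 16536 genes had a lower and 11.2% a higher response. SPRY4 and PHLDA1 were also past the fold threshold, as were 2.15% of all genes in this direction. The median difference over the 10 genes was -0.60 on the log2 scale, against -0.0090 over all genes. With library size alone as scaling, 2477 genes had a higher and 1510 a lower response, against 1851 and 2075 with TMM factors, and the same 6 feedback genes passed the test.

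The largest difference was in SPRY4, at -1.61 on the log2 scale (SE 0.27, adjusted p = 1.16e-04), where GCN2KO cells had the higher unwounded level and the wounded groups overlapped. PHLDA1 had the smallest adjusted p of the 10 genes, rank 12 of all genes, with a difference of -1.05 (SE 0.079, adjusted p = 2.28e-09). DUSP4 differed by -0.84 (SE 0.15, adjusted p = 2.01e-04), and SPRY2 by -0.76 (SE 0.11, adjusted p = 2.97e-05). For DUSP6 the difference was -0.71 (SE 0.11, adjusted p = 3.06e-05), and for DUSP5 it was -0.49 (SE 0.12, adjusted p = 0.00381). SPRY2, DUSP4 and DUSP6 reached lower wounded levels in GCN2KO than in WT cells, whereas PHLDA1 and DUSP5 started higher.

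SPRED1 and SPRED2 gave differences of -0.24 (95% interval -0.45 to -0.035, adjusted p = 0.0742) and -0.23 (95% interval -0.42 to -0.037, adjusted p = 0.0691). Both passed the test when genes with a mean under 50 counts were left out and with some libraries left out, where the lowest adjusted p was 0.0423 for SPRED1 and 0.0242 for SPRED2. DUSP7 differed by -0.09 (95% interval -0.26 to 0.080, adjusted p = 0.452). DUSP1 was the only gene with a positive value, 0.31 (95% interval -0.0079 to 0.62, adjusted p = 0.140), and without GCN2KO HDW replicate 5 it was 0.39, with an adjusted p of 0.0253.

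**Figure D3:**
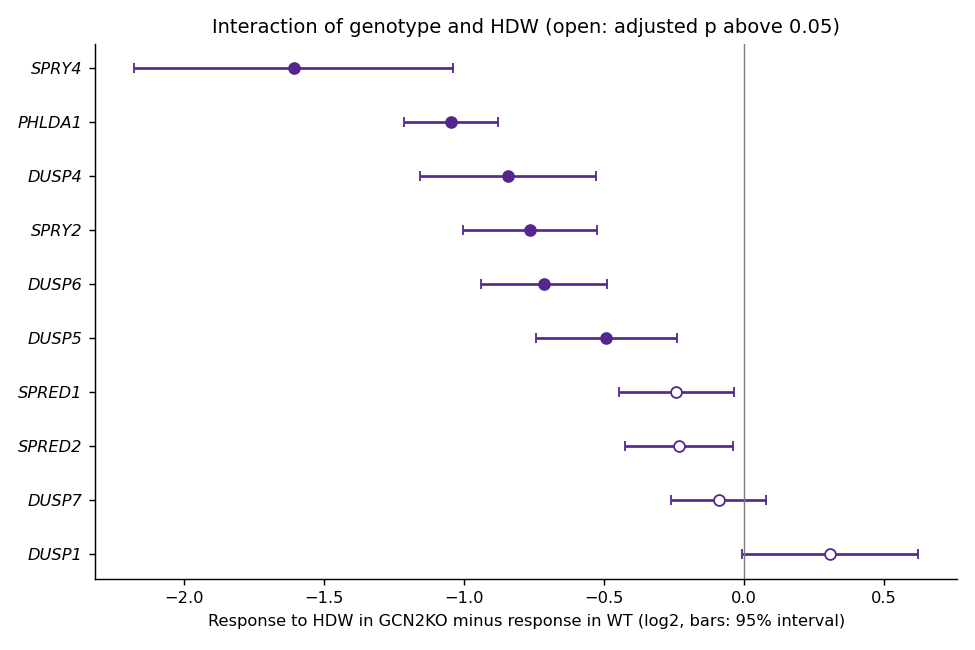
Response to HDW in GCN2KO minus response in WT cells (x axis, log2 scale, bars are 95% intervals over 20 libraries) for each ERK feedback gene (y axis). Open points did not pass the test at an adjusted p of 0.05. The 6 filled points run from -1.61 for SPRY4 to -0.49 for DUSP5.

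GCN2KO and WT cells were next compared without wounding. DUSP1 was higher in GCN2KO cells by 3.97-fold, SPRY4 by 2.97-fold, PHLDA1 by 2.29-fold and DUSP5 by 2.28-fold, while SPRED1, SPRED2, SPRY2 and DUSP7 were lower. These 4 higher and 4 lower genes passed the test, where 33.4% of 15348 genes were higher and 33.1% lower, and all 4 higher genes were DE genes, against 8.21% of all genes. The median log2 fold change over the 10 genes was 0.01, against 0.0042 over all genes.

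DUSP1 averaged 1369 ± 209 (SD, n = 5) normalized read counts in GCN2KO unwounded and 347 ± 29.5 (SD, n = 5) in WT unwounded cells. Its log2 fold change of 1.99 (SE 0.10, adjusted p = 1.48e-10) ranked 323 from the highest. SPRY4 averaged 63.7 ± 15.04 (SD, n = 5) and 21.0 ± 5.87 (SD, n = 5), a log2 fold change of 1.57 (SE 0.23, adjusted p = 1.34e-05). PHLDA1 averaged 8152 ± 341 (SD, n = 5) and 3567 ± 209 (SD, n = 5), with a log2 fold change of 1.20 (SE 0.063, adjusted p = 1.71e-10). DUSP5, at 706 ± 82.6 (SD, n = 5) and 310.0 ± 15.4 (SD, n = 5), had a log2 fold change of 1.19 (SE 0.088, adjusted p = 6.98e-09). In these 4 genes all GCN2KO unwounded libraries lay above all WT unwounded ones, which held for 26.3% of all genes.

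DUSP1 and SPRY4 both lie on chromosome 5, at 172768096 to 172771195 and 142310427 to 142326455 of GRCh38 on the minus strand. Other genes of that chromosome had a median log2 fold change of 0.35 between GCN2KO and WT cells without wounding (694 genes) and of 0.36 after HDW (720 genes). Within 5 Mb of DUSP1 the medians were 0.43 over 60 genes and 0.28 over 61 genes, and within 5 Mb of SPRY4 they were 0.16 over 93 genes and 0.35 over 94 genes. Whether the higher level of this chromosome has a part in the levels of DUSP1 and SPRY4 was not tested. The chromosomes of the other 8 genes had medians between -0.071 and 0.084.

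SPRED1 was lower, with a log2 fold change of -0.46 (SE 0.080, adjusted p = 9.37e-05) in GCN2KO unwounded cells. The values were -0.29 (SE 0.082, adjusted p = 0.00472) for SPRED2, -0.28 (SE 0.094, adjusted p = 0.0145) for SPRY2 and -0.28 (SE 0.071, adjusted p = 0.00258) for DUSP7. Among these, the groups were separate for SPRED1 and DUSP7 and touched or overlapped for SPRED2 and SPRY2, and separate lower groups were seen in 27.0% of all genes. SPRY2 lost its call when counts were thinned to the smallest library, where the adjusted p was 0.0771. DUSP4 and DUSP6 gave 0.17 (95% interval -0.067 to 0.40, adjusted p = 0.158) and -0.14 (95% interval -0.35 to 0.063, adjusted p = 0.171) and did not pass the test.

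After HDW, the feedback genes called without wounding passed the test again in the same direction except SPRY4, and DUSP4 and DUSP6 passed in addition. The share of all genes called again in this way was not computed, so this overlap was not set against it. DUSP1 was 4.91-fold and DUSP5 1.62-fold higher in GCN2KO cells and PHLDA1 1.11-fold higher. SPRY2, DUSP6, SPRED1, DUSP4, SPRED2 and DUSP7 were lower, SPRY2 at 0.482 and DUSP6 at 0.552 of the WT level. Past the test, 3 genes were higher and 6 lower, where 35.9% of 15855 genes were higher and 35.8% lower. The median log2 fold change was -0.45 over the 10 genes and 0.0020 over all genes. DUSP1 and SPRY2 were the DE genes among them, against 14.9% of all genes in either direction. The wounded groups were separate for DUSP1 and DUSP5, which were higher, and for the 6 lower genes, as in 27.9% and 29.3% of all genes.

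DUSP1 averaged 1579 ± 235 (SD, n = 5) normalized read counts in GCN2KO HDW and 321 ± 20.9 (SD, n = 5) in WT HDW cells, a log2 fold change of 2.30 (SE 0.098, adjusted p = 3.34e-10). DUSP5 averaged 1017 ± 108 (SD, n = 5) and 631 ± 54.4 (SD, n = 5), with a log2 fold change of 0.69 (SE 0.077, adjusted p = 1.98e-06). PHLDA1, at 8625 ± 445 (SD, n = 5) and 7792 ± 523 (SD, n = 5), had overlapping groups and a log2 fold change of 0.15 (SE 0.052, adjusted p = 0.0209). That call was lost without a filter on low counts, where the adjusted p was 0.0658, and without WT HDW replicate 1 or 5 or GCN2KO HDW replicate 1 or 2, where it reached 0.0636. SPRY4 averaged 137 ± 26.0 (SD, n = 5) and 143 ± 21.2 (SD, n = 5), and its log2 fold change of -0.04 (95% interval -0.35 to 0.26, adjusted p = 0.79) did not pass the test.

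SPRY2 averaged 190.2 ± 9.37 (SD, n = 5) normalized read counts in GCN2KO HDW and 393 ± 36.9 (SD, n = 5) in WT HDW cells. Its log2 fold change of -1.05 (SE 0.074, adjusted p = 2.34e-08) left wounded GCN2KO cells at the level of unwounded WT cells, 198 ± 13.8 (SD, n = 5), with overlapping ranges. DUSP6 had a log2 fold change of -0.86 (SE 0.067, adjusted p = 6.01e-08), at 482 ± 38.4 (SD, n = 5) against 877 ± 66.2 (SD, n = 5). DUSP4, at 895 ± 166 (SD, n = 5) against 1438 ± 63.2 (SD, n = 5), had a log2 fold change of -0.68 (SE 0.097, adjusted p = 2.26e-05). The values were -0.71 (SE 0.059, adjusted p = 1.14e-07) for SPRED1, -0.53 (SE 0.045, adjusted p = 1.22e-07) for SPRED2 and -0.37 (SE 0.041, adjusted p = 1.69e-06) for DUSP7.

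**Figure D4:**
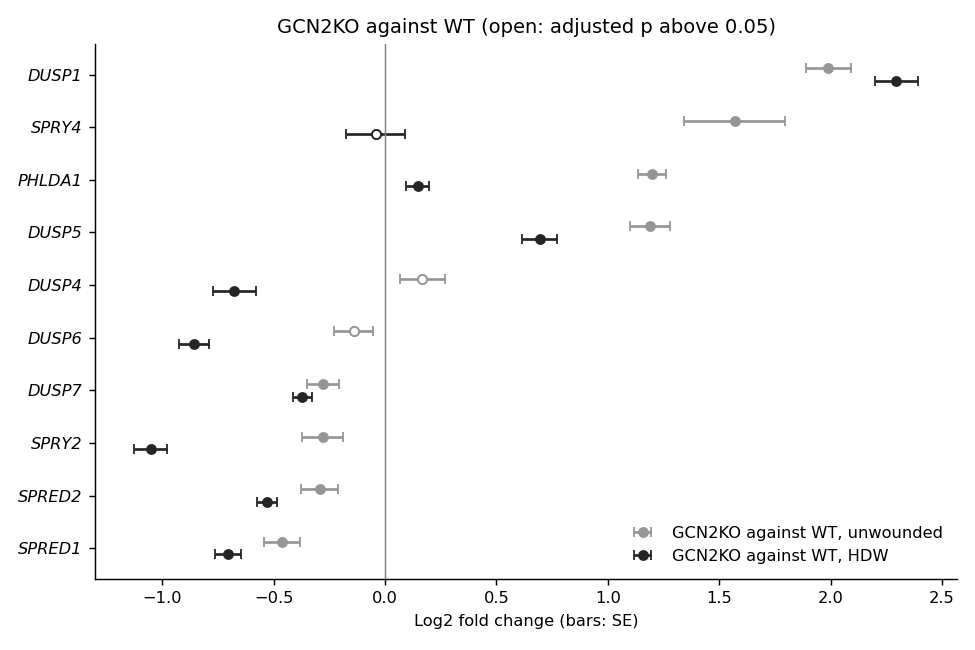
Log2 fold change of GCN2KO against WT cells (x axis, bars are the SE from edgeR) for each ERK feedback gene (y axis), without wounding and after HDW, with 5 libraries per group. Open points did not pass the test at an adjusted p of 0.05. DUSP1 is at 1.99 and 2.30, and SPRY2 at -0.28 and -1.05.

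Ordered by level over the 4 groups, the 10 genes fell into several patterns. DUSP4 and DUSP6 were lowest in both unwounded groups, whose ranges overlapped, intermediate in GCN2KO HDW and highest in WT HDW cells. SPRED1, SPRED2 and DUSP7 ran from GCN2KO unwounded through WT unwounded and GCN2KO HDW to WT HDW cells, with overlap between neighbours for SPRED1 and DUSP7 at WT unwounded and GCN2KO HDW, and for SPRED2 at the unwounded groups. In SPRY2 the first 3 of these groups overlapped with their neighbours and WT HDW cells stood apart. DUSP5 ran from WT unwounded to WT HDW and GCN2KO unwounded cells, which overlapped, and to GCN2KO HDW cells. PHLDA1 was lowest in WT unwounded cells and overlapped between neighbours in the other 3 groups, SPRY4 overlapped only between the wounded groups, and DUSP1 overlapped within each genotype.

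The rest of the pathway was followed in 9 lists of 115 genes in all. The lists were chosen with earlier results of these data known, so their shares beside those of all genes are descriptions and not a test. With HDW in WT cells, 51 of the 110 genes tested (46.4%) were higher and 23 (20.9%) lower, where 26.1% of all genes were higher and 25.2% lower. In GCN2KO cells 34 of 111 (30.6%) were higher and 5 (4.50%) lower, where 11.9% of all genes were higher and 10.8% lower. The median log2 fold changes of the listed genes were 0.10 and 0.14. The interaction gave 15 genes (13.5%) with a higher and 17 (15.3%) with a lower response in GCN2KO cells, near the 11.2% and 12.5% of all genes.

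Of the other output genes of ERK activity scores, HDW raised 10 of 11 and lowered 1 in WT cells (median log2 fold change 1.09) and raised 8 in GCN2KO cells (median 0.63). ETV5, an ETS-family transcription factor, rose most in WT cells, at a log2 fold change of 1.98 (SE 0.19, adjusted p = 6.18e-07), and its response was lower in GCN2KO cells, with a difference of -1.37 (SE 0.22, adjusted p = 9.82e-05). ETV5 averaged 26.7 and 111 normalized read counts in WT unwounded and HDW cells and 90.1 and 138 in GCN2KO unwounded and HDW cells, which thus started higher. The ephrin receptor EPHA4 fell, at a log2 fold change of -0.65 (SE 0.094, adjusted p = 3.71e-05). The interaction was lower for 5 and higher for 1 of these genes. EGF receptor ligands rose in WT cells for 6 of 7 genes, with HBEGF first at a log2 fold change of 1.41 (SE 0.10, adjusted p = 2.71e-08), and BTC fell. In GCN2KO cells 2 of 8 ligands rose and 2 fell, and 4 had a lower response, EREG the most by a difference of -1.39 (SE 0.13, adjusted p = 9.11e-08). EREG averaged 2357 and 6149 normalized read counts in WT unwounded and HDW cells and 5572 and 5546 in GCN2KO unwounded and HDW cells. Without wounding, 5 of 8 ligands were higher and 1 lower in GCN2KO than in WT cells (33.4% and 33.1% of all genes). After HDW, 2 were higher and 4 lower (35.9% and 35.8% of all genes).

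ERK-regulated transcription factors and early genes rose for 14 of 22 genes in WT cells and for 12 of 22 in GCN2KO cells, with 3 lower in WT and none in GCN2KO cells. EGR3, an immediate early zinc finger factor, rose most in WT cells, at a log2 fold change of 1.82 (SE 0.28, adjusted p = 5.84e-05). It was weakly expressed, at 3 to 64 raw counts per library. EGR3 averaged 12.3 and 44.7 normalized read counts in WT unwounded and HDW cells and 10.2 and 26.8 in GCN2KO unwounded and HDW cells. The AP-1 subunit FOSL2 fell in WT cells, at -0.56 (SE 0.033, adjusted p = 3.55e-09). The response of FOSL1, another AP-1 subunit, was lower in GCN2KO cells by a difference of -0.51 (SE 0.11, adjusted p = 0.00112). FOSL1 averaged 312 and 942 normalized read counts in WT unwounded and HDW cells and 230 and 482 in GCN2KO unwounded and HDW cells. In this list the interaction was higher for 5 and lower for 3 genes.

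Among 8 other DUSP phosphatases tested for HDW in WT cells, DUSP16 was higher, DUSP10 was lower and 6 did not pass the test. In GCN2KO cells 3 of these 8 rose. Of 16 other inhibitors between receptor and RAS, 9 rose and 2 fell in WT cells and 4 rose in GCN2KO cells. The adaptor SH3KBP1, which acts with CBL in receptor uptake, rose most, at a log2 fold change of 1.77 (SE 0.047, adjusted p = 1.45e-12), and its response was lower in GCN2KO cells by a difference of -1.74 (SE 0.10, adjusted p = 4.39e-11). SH3KBP1 averaged 753 and 2567 normalized read counts in WT unwounded and HDW cells and 1044 and 1068 in GCN2KO unwounded and HDW cells. LRIG1, a membrane inhibitor of EGFR, fell in WT cells, at -0.32 (SE 0.074, adjusted p = 0.00198).

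Upstream kinases and receptors moved in both directions. Of 17 RAF, MEK, ERK and RSK kinases and scaffolds, 7 rose and 3 fell in WT cells and none rose and 1 fell in GCN2KO cells. RPS6KA2, a kinase that ERK activates, rose, at a log2 fold change of 1.38 (SE 0.076, adjusted p = 1.69e-09) and RPS6KA5 had a value of -0.99 (SE 0.056, adjusted p = 2.34e-09). Receptors were higher for 2 and lower for 4 of 8 in WT cells and higher for 3 and lower for 1 of 8 in GCN2KO cells, with EGFR in WT cells at 0.28 (SE 0.047, adjusted p = 1.34e-04) and FGFR3 at -1.75 (SE 0.11, adjusted p = 5.95e-09), and adaptors and RAS were higher for 1, PTPN11, and lower for 4 of 11 in WT cells and higher for 2 and lower for none in GCN2KO cells. The p38 and JNK kinases that DUSP1 acts on, with the kinases around them, were higher for 3 and lower for 4 of 12 in WT cells and higher for 1 and lower for 1 in GCN2KO cells. The shares over all genes were 26.1% higher and 25.2% lower in WT and 11.9% and 10.8% in GCN2KO cells, and the counts of the p38 and JNK list lay near them.

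**Figure D5:**
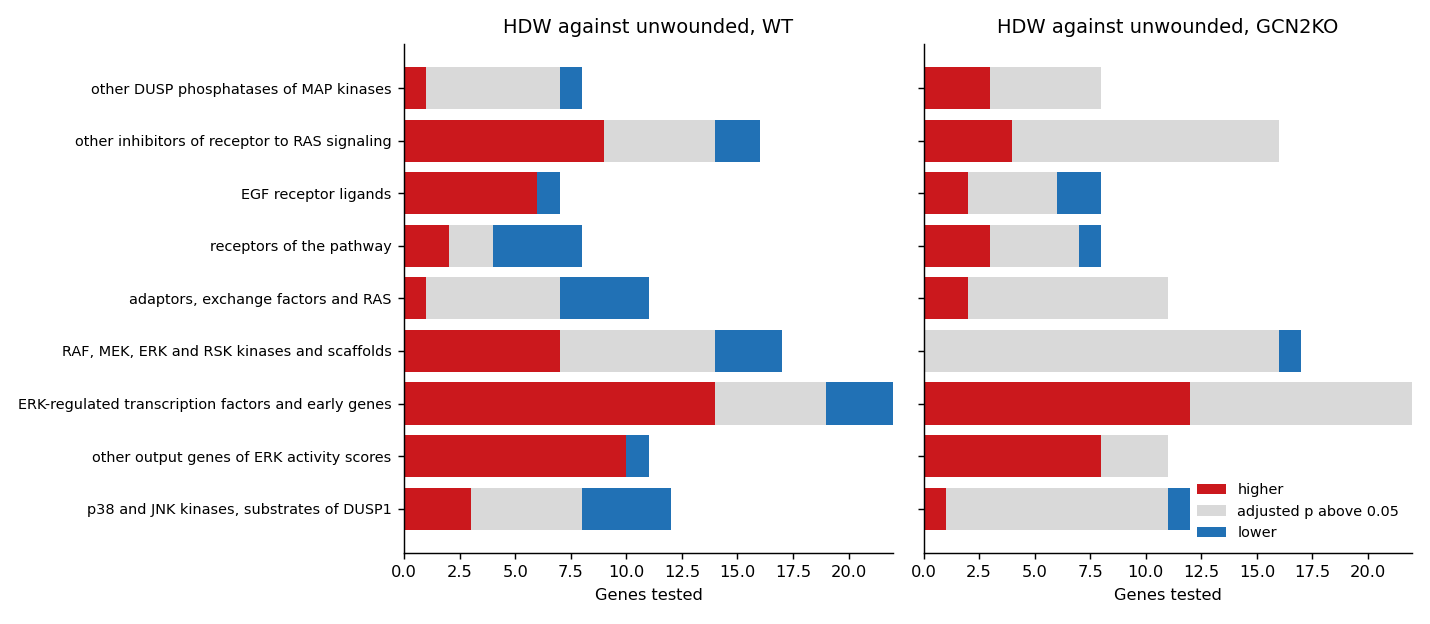
Number of genes tested (x axis) in each of 9 lists of the ERK and neighbouring pathways (y axis), divided into genes higher, lower or not past the test at an adjusted p of 0.05 for HDW in WT (left) and in GCN2KO cells (right). The output genes of ERK activity scores were higher for 10 of 11 genes in WT and for 8 of 11 in GCN2KO cells.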

How the data were processed

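RNA from 20 NTERT cultures was sequenced as paired-end reads. The authors trimmed the reads with Trimmomatic, aligned them to GRCh38 with STAR, counted those on exons with featureCounts and deposited raw counts per gene and library, unnormalized and unfiltered. The strand setting and the annotation release are not given in the sources used here, so reads of overlapping antisense genes cannot be told apart. Of the 57500 genes, 56410 were matched to GENCODE release 44. The 40 pairs of replicate libraries differed beyond sampling noise (chi-square per degree of freedom of 2.68 to 62.1), so none was counted as a duplicate. The methods of the study plate the cultures in replicates of 5 and call its n biological replicates. Separate days or passages are not given in the sources used here, and p-values measure the spread between these samples.

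Counts were compared with edgeR 4.0.16 (glmQLFit and glmQLFTest) in R 4.3.3, after TMM scaling and removal of weakly expressed genes by filterByExpr (at a minimum count of 10 and a minimum total of 15), on the 10 libraries of a pair of groups or, for the interaction, on all 20. All genes tested were fitted, and p-values were adjusted over all of them (Benjamini-Hochberg). The SE was taken from the log2 fold change and its F statistic, as their ratio after a square root of F. The 95% intervals use 8 residual degrees of freedom for a pair of groups and 16 for all 4 groups. The edgeR test adds degrees of freedom shared across genes, so these intervals are wider than its p-values imply. The interval of the DUSP1 interaction covers 0, while its unadjusted p in that test was 0.0497. DE genes passed an adjusted p of at most 0.05 and differed by 1 or more on the log2 scale in either direction, the thresholds of the study's methods. On simulated counts for 16536 genes, 200 of 200 genes changed by a log2 fold of 1.5 were recovered for HDW in WT, with 1 unchanged gene called, and 200 of 200 for the interaction, with 0 unchanged genes called. The changed genes were drawn from well-expressed genes only, and all genes had the same dispersion. Recovery of weakly expressed genes and of smaller changes was thus not covered.

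All 10 feedback genes and EIF2AK4 are named, with the 2 genes most alike each of them and, of each list, the genes with the largest rise and fall among those past the test in WT HDW and in the interaction, given with values or in the text by name only. The genes, lists and tests were chosen with earlier results of these data known. Alternatives were DESeq2 1.42.0, its size factors, scaling by library size alone, a filter at a mean of 50 counts or none, 1 fit to all 20 samples, the replicate block, thinned counts, glmTreat and each library left out. Tables and figures used Python 3.11.15, pandas 2.3.3 and matplotlib 3.10.9. Immunoblots, migration assays and imaging were not analysed here.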

Additional observations from a re-analysis of the deposited data

Results flagged for a closer look

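The DUSP1 level of WT unwounded replicate 2 stood apart from its group, at 398 normalized read counts against 327 to 345 in the other 4 libraries. The 10 genes gave 40 groups to check, and chance alone sets a library apart in about 1 in 20 groups.

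The response to HDW differed between genotypes by the interaction test in 6 genes. The response in GCN2KO minus that in WT cells was -1.61 for SPRY4, -1.05 for PHLDA1, -0.84 for DUSP4, -0.76 for SPRY2, -0.71 for DUSP6 and -0.49 for DUSP5 on the log2 scale, with adjusted p-values from 2.28e-09 to 0.00381 (edgeR).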

How the results depend on the processing

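Of the log2 fold changes of the 10 genes and EIF2AK4 under other settings, 400 kept their direction and their side of the threshold, 3 newly passed the test and 2 lost it, and with a library left out 606 kept both, 7 newly passed, 4 lost their call and 3 changed sign. The number of DE genes among the 10 moved by more than 1.5 times under glmTreat, which tests against the fold threshold itself. It became 3 in place of 5 for HDW in WT and 0 in place of 2 for HDW in GCN2KO. It became 1 in place of 2 for GCN2KO against WT after HDW and 0 in place of 2 for the interaction. DE genes over all genes fell too, for HDW in WT from 402 higher and 238 lower to 152 and 45. For HDW in GCN2KO they fell from 75 and 31 to 0 and 0 of 15791 genes. For GCN2KO against WT after HDW they fell from 1126 and 1242 to 554 and 686. For the interaction they fell from 192 and 355 to 3 and 54. With library size alone the interaction gave 1 DE gene in place of 2, with PHLDA1 at -0.98, and the cause was not tested. For HDW in GCN2KO, 1 to 2 of the 10 genes were DE genes with each library left out. SPRY4 between GCN2KO and WT after HDW, which did not pass the test, ranged from -0.13 to 0.026 with each library left out and changed sign without WT HDW replicate 1 or 4 or GCN2KO HDW replicate 4. The deviations of same-numbered samples from their group means correlated by 0.0107, -0.109, 0.0228 and 0.0332 on average in the 4 comparisons of a pair of groups, so the numbers were not taken to pair samples. With the replicate block, no call of the 10 genes changed in any comparison, while genes past the test for HDW in GCN2KO cells went from 1880 higher and 1706 lower to 1239 higher and 882 lower. The counts of genes past the test in the 9 lists were redone with the replicate block and with library size alone, where 167 stayed within 1.5 times and 13 did not. With the replicate block, EGF receptor ligands lower with HDW in GCN2KO cells went from 2 to 1, receptors higher from 3 to 1, adaptors and RAS higher from 2 to 1 and p38 and JNK kinases lower from 1 to 0, while other DUSP genes higher with HDW in WT cells went from 1 to 2 and ligands lower between unwounded genotypes from 1 to 0. With library size alone, adaptors and RAS lower with HDW in WT cells went from 4 to 7, other DUSP genes lower from 1 to 2 and p38 and JNK kinases lower with HDW in GCN2KO cells from 1 to 0. In the interaction it took a higher response from 1 to 4 genes for the RAF to RSK list, from 1 to 2 for the other inhibitors and from 1 to 2 for the p38 and JNK kinases, whose lower responses went from 2 to 1. The depth of WT unwounded libraries limits SPRY4, which had 9 to 31 raw counts there.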

Other observations

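The 10 genes did not vary as a single block over the 20 libraries. Over all 45 pairs of the genes, the correlation of log2 CPM had a median of 0.56 (Pearson's r) and ranged from -0.68 for DUSP1 with SPRY2 to 0.97 for SPRED1 with SPRED2. These 20 libraries share 4 group means, and within groups the median over the same pairs was 0.27. GCN2KO unwounded replicate 4 held the highest value of its group for 7 of the 10 genes and replicate 5 the lowest for 6. GCN2KO HDW replicate 1 held the highest for 6. The share of all genes highest or lowest in these libraries was not computed, so the counts cannot be read as a trait of the 10 genes.

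Among 12353 genes with a mean of at least 50 counts, the genes most alike in pattern over the 20 libraries were ZNF841 and HMOX1 for DUSP1 (r of 0.992 for both), SPHK1 and MFSD12 for DUSP4 (0.967 and 0.966) and DDAH1 and NUP155 for DUSP5 (0.983 and 0.982). DUSP6 was most like FOSL1 and TOMM40 (0.979 and 0.978), and DUSP7 most like LMNB2 and CARD10 (both 0.980). For SPRY2 they were RBL1 and HMGA1 (both 0.971), for SPRY4 SEMA7A and CAPN2 (0.968 and 0.963), for SPRED1 ALDH1A3 and LMNB2 (0.989 and 0.980), for SPRED2 GALNT18 and AJAP1 (0.982 and 0.978) and for PHLDA1 KCNG1 and NARS1 (0.984 and 0.982). The values are descriptions over libraries that share their groups, and each gene was picked as the best of all genes compared.

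Of the 15 listed genes with a positive interaction difference past the test, only the largest of each list is named. These were MAP2K3, at 0.79 (SE 0.089, adjusted p = 6.97e-07), EPHA4 at 0.68 (SE 0.15, adjusted p = 0.00159), IGF1R at 0.61 (SE 0.16, adjusted p = 0.00666) and DUSP10 at 0.59 (SE 0.12, adjusted p = 7.34e-04). The others were FOSL2 at 0.58 (SE 0.094, adjusted p = 8.89e-05), GAB1 at 0.53 (SE 0.091, adjusted p = 1.78e-04), RPS6KA5 at 0.49 (SE 0.12, adjusted p = 0.00489) and NF1 at 0.46 (SE 0.15, adjusted p = 0.0286). For some the sign stands for a weaker or absent fall. RPS6KA5 averaged 443 and 224 normalized read counts in WT unwounded and HDW cells and 234 and 165 in GCN2KO unwounded and HDW cells. In the same order, FOSL2 averaged 15765, 10703, 11360 and 11506 and EPHA4 1494, 956, 416 and 427. Of the negative differences not given above, RPS6KA2 was at -1.38 (SE 0.14, adjusted p = 1.86e-07) and MAPKAPK3 at -0.33 (SE 0.062, adjusted p = 4.51e-04), each the largest of its list. RPS6KA2 averaged 800 and 2081 normalized read counts in WT unwounded and HDW cells and 1624 and 1620 in GCN2KO unwounded and HDW cells. In WT cells SOS2 and MAP2K6 fell with HDW, at -0.21 (SE 0.045, adjusted p = 0.00135) and -0.37 (SE 0.11, adjusted p = 0.0105), and MAPK12 rose by 0.40 (SE 0.083, adjusted p = 8.84e-04).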
